A study of Mus musculus with 48 samples.

Results

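Brown fat (BAT) was compared with visceral white fat (EFAT) in male Cth+/+ mice on the CTRL diet, so that the depot differed while genotype and diet did not. The comparison takes 8 of the 48 libraries of the series, those labelled 1 to 4 in each depot, and covers every gene of the count table. The series measured poly(A) RNA in 3 fat depots of male mice with (Cth+/+) or without (Cth-/-) the gene for cystathionine gamma-lyase, the enzyme that releases cysteine from cystathionine. Each genotype was given 1 of 2 diets for 6 days, the control diet CTRL or CysF, from which cystine was left out. That gives 12 groups of 4 libraries. All 8 libraries used here came from mice that kept both copies of Cth and ate the control diet for 6 days. RNA came from ground frozen depots, so that for any gene fewer cells of a type and less RNA per cell cannot be told apart. Whether the libraries of a group are separate animals, and whether equal numbers mark depots of the same mouse, is not given in the sources used here. The p-values therefore measure the spread between these libraries, which may be in part technical.

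Brown adipocytes hold many mitochondria and small lipid droplets, and their uncoupling protein Ucp1 lets protons return across the inner mitochondrial membrane so that fuel oxidation is released as heat. Noradrenaline from sympathetic nerves switches this on through adrenergic receptors, lipolysis and cyclic AMP. White adipocytes of visceral depots store triglyceride in a single large droplet and secrete hormones such as leptin and adiponectin, and the depot is covered by mesothelium.

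The libraries held 23093106 to 30662186 deposited counts in BAT and 25063535 to 26585369 in EFAT. Of 15162 genes with enough reads, 9636 (63.6%) differed between the depots in edgeR's quasi-likelihood test at an adjusted p under 0.05, 4612 (30.4%) higher in BAT and 5024 (33.1%) higher in EFAT. A stricter test against a fold of 2 was passed by 1394 genes (9.19%) in BAT and 2159 genes (14.2%) in EFAT, and 787 and 1474 of the called genes were over 4-fold higher in BAT and in EFAT. The libraries of the depots did not overlap for 58.6% of tested genes. Levels are given in CPM (counts relative to library size) after scaling by trimmed means (TMM), and changes as log2 of BAT over EFAT, with a standard error (SE). A few genes took a large part of the BAT reads: the 10 most abundant genes held 44.4% of BAT counts and 19.2% of EFAT counts. Division by library totals alone moved the median change of all tested genes from -0.02 to -1.05 and left 9.32% of the calls higher in BAT in place of 47.9% (1159 of 12432 genes in place of 4612 of 9636). Changes smaller than that shift therefore depend on the scaling, and for lists with a median within or near it the counts with library totals are given as well. Counts of list members are to be read beside the shares of 30.4% and 33.1% over all tested genes.

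Ucp1 (chr8:83290352-83298452 on mm10) stood at 2774, 2042, 2904 and 3596 CPM in BAT libraries 1 to 4, against 0, 0.0613, 0.169 and 0.0267 CPM in EFAT. Every BAT library lay far above every EFAT library, and the change was 15.25 (SE 0.45, adjusted p = 2.01e-08), the largest in BAT among genes over 5 CPM without overlap, predicted genes and pseudogenes left out. Cidea, a lipid droplet protein of thermogenic adipocytes, measured 1171, 1124, 1307 and 1265 CPM in BAT and 0.629, 1.62, 1.42 and 1.31 CPM in EFAT (9.93, SE 0.27). Elovl3, which lengthens very long fatty acids, read 337, 179, 310 and 340 CPM in BAT and 0.133 to 0.644 CPM in EFAT (9.66, SE 0.38). Otop1, Fabp3 and Cpt1b, a proton channel, a fatty acid carrier and the muscle form of carnitine palmitoyltransferase 1, changed by 8.53, 9.18 and 8.41. Letmd1, a mitochondrial protein needed for brown fat heat production, was higher by 4.41 (SE 0.12). Of 36 tested genes on a list of brown adipocyte genes, 33 were higher in BAT, 2 were higher in EFAT and 1 did not pass, and the median change was 3.32 beside -0.02 over all tested genes. Prdm16, a coregulator of brown fat identity, read 29.3, 30.7, 37.9 and 30.5 CPM in BAT and 4.91 to 6.8 CPM in EFAT (2.38), and the regulators Ebf2 and Ppargc1a were higher by 1.76 and 2.16. Dio2, the deiodinase that makes active thyroid hormone inside the cell, measured 28.0, 22.0, 80.5 and 122 CPM in BAT against 10.7, 4.91, 5.09 and 3.44 CPM in EFAT. Its change of 3.40 (SE 0.59, adjusted p = 0.000617) still left no overlap between the depots. The 2 brown genes higher in EFAT were Epsti1 (-2.07) and Adrb3 (-0.42).

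**Figure D1:**
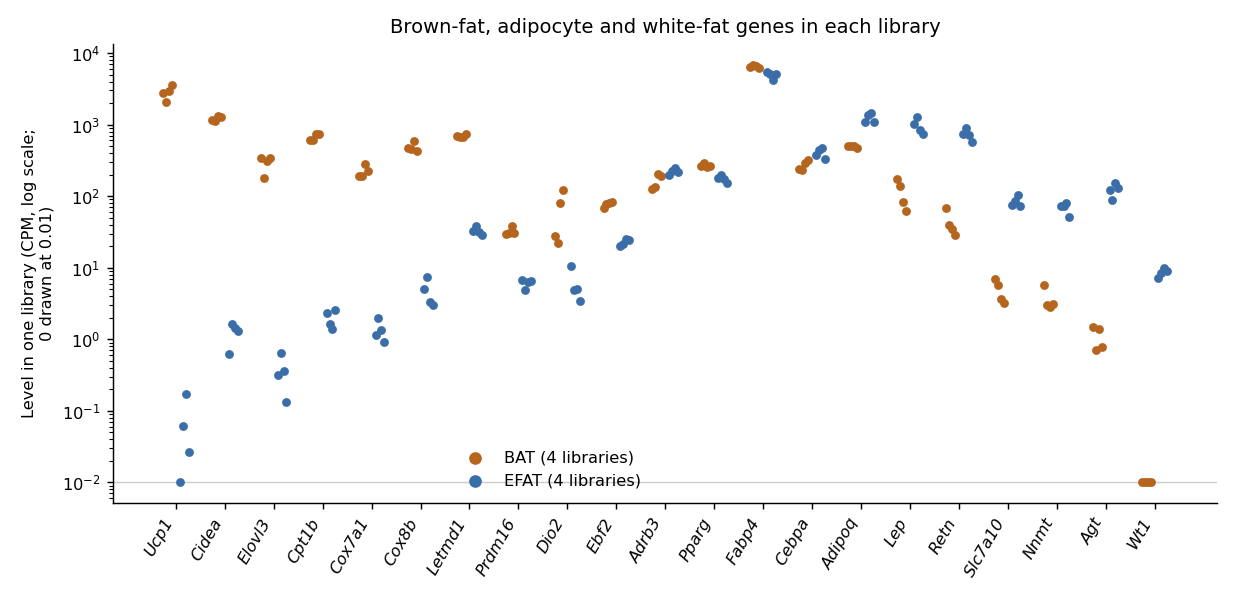
Level of genes that mark brown or white fat in each of the 8 libraries, in CPM on a log axis, BAT and EFAT libraries as points of separate colours, with 0 drawn at 0.01. Ucp1 lies between 2042 and 3596 CPM in BAT and at 0.169 CPM or less in EFAT, while Lep and Wt1 lie higher in every EFAT library.

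Genes linked to white fat ran the other way. Of 24 tested members of that list, 22 were higher in EFAT, 1 in BAT and 1 did not pass, with a median of -3.02. The 1 in BAT was Rb1, at 0.25 with TMM (adjusted p = 0.0448, past the threshold in 10 of 21 alternative settings) and -0.78 with library totals. Lep, which encodes leptin, measured 171, 139, 83.4 and 61.8 CPM in BAT and 1017, 1263, 832 and 744 CPM in EFAT. The depots did not overlap, and leptin mRNA was lower in BAT by -3.08 on the log2 scale (SE 0.33). Retn (resistin) changed by -4.10, Slc7a10, a serine transporter of white adipocytes, by -4.13, and Agt, the precursor of angiotensin, by -6.82, with 0.715 to 1.49 CPM in BAT against 88.2 to 154 CPM in EFAT. Mest, Nnat, Nnmt and Igfbp2 changed by -4.24 to -6.86. Among 23 tested genes shared by all adipocytes, 9 were higher in BAT, 11 in EFAT and 3 did not pass (median -0.14). With library totals 4 were higher in BAT and 17 in EFAT (median -1.16). The TMM shares were 39.1% and 47.8%, beside 30.4% and 33.1% over all tested genes. Adipoq, which encodes adiponectin, had 471 to 502 CPM in BAT and 1080 to 1433 CPM in EFAT (-1.34, SE 0.12), Lpl changed by -2.35 and Car3, an abundant carbonic anhydrase, by -2.97. Gpd1 (2.21) and Cebpb (2.54) were higher in BAT. Pparg and Fabp4, the master regulator and the main fatty acid carrier of fat cells, were higher in BAT by 0.61 and 0.39 after TMM scaling but lower by -0.42 and -0.63 with library totals alone, and Cebpa was lower by -0.59. The call for Fabp4 (adjusted p = 0.0278) was lost in 5 of 21 alternative settings, with adjusted p from 0.000141 to 0.12, among them those without BAT library 3 (0.0571) and without EFAT library 3 (0.066). On a list of beige adipocyte genes 4 of 10 tested members were higher in BAT, 5 in EFAT and 1 did not pass (3 and 6 with library totals). The TMM shares of that list were 40% and 50%.

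Nuclear genes for the respiratory chain and ATP synthase were nearly all higher in BAT. Of 80 subunits tested, 75 were higher in BAT, 2 in EFAT and 3 did not pass, and 74 of the 75 also passed the test against a fold of 2, with a median change of 2.68. All 36 subunits of complex I, 4 of complex II and 9 of complex III were higher in BAT, with medians of 2.56, 2.99 and 3.05, as were 13 of 15 of cytochrome c oxidase (complex IV) and 13 of 16 of ATP synthase (complex V). Ndufv1 of complex I read 581 ± 124 CPM in BAT and 69.7 ± 12.1 CPM in EFAT (SD, n = 4; log2 change 3.06), and Sdhb, Cox5a and Atp5b changed by 3.12, 3.60 and 2.51. Uqcrc1, a core protein of complex III, measured 894, 820, 1037 and 1017 CPM in BAT and 105, 120, 104 and 90.9 CPM in EFAT (3.17, SE 0.13). The 2 exceptions in EFAT were Atpif1, the inhibitor of ATP synthase (-1.40), and Atp5g1, a c-ring subunit (-1.27), whose reads may be divided with near-identical copies in the genome, so that these values are uncertain. The largest changes in the chain belonged to Cox6a2 (7.43), a muscle form with 10.0, 12.0, 2.03 and 2.56 CPM in BAT, to Cox7a1 (193, 192, 284 and 221 CPM in BAT against 1.14, 1.96, 1.33 and 0.906 CPM in EFAT, 7.39) and to Cox8b (465, 452, 595 and 431 CPM against 5.00, 7.48, 3.33 and 2.98 CPM, 6.70). The last 2 are forms of complex IV subunits found in heart, muscle and brown fat.

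All 13 protein genes of the mitochondrial genome were higher in BAT, with a median change of 2.82. RNA of the mitochondrial genome made up 28.9%, 35.9%, 23.3% and 24.9% of counts in BAT and 10.5%, 9.48%, 6.46% and 11.5% in EFAT. The ranges did not overlap, and the means of 28.3% ± 5.64 and 9.5% ± 2.19 (SD, n = 4) differed by 18.8 points (exact permutation test, two-sided p = 0.0286, the smallest that 4 against 4 libraries can give). A further 11.2 to 15.9% of BAT counts and 2.93 to 4.86% of EFAT counts were assigned to 7 nuclear pseudogene copies of mitochondrial genes, so that values of single mitochondrial genes are uncertain. Mitochondrial ribosomal proteins moved less than the chain: 73 of 76 were higher in BAT and 1 in EFAT, with a median of 1.25 and Mrpl34 highest at 2.56, and library totals left 30 higher in BAT and 6 in EFAT (median 0.23). Regulators of mitochondrial gene expression included 14 of 19 higher in BAT (6 with library totals, against 7 in EFAT), among them Ppargc1b (2.64), Esrra (2.01), Tfb2m (1.59) and Gabpa (1.35). Pprc1 and Nrf1 were the 2 that were higher in EFAT, by -0.76 and -0.29, the latter with an adjusted p of 0.0407 that missed the threshold in 12 of 21 alternative settings (adjusted p from 3.09e-05 to 0.191).

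The 300 bases around the transcription start (250 before and 50 after, RefSeq on GRCm38.p6) were examined because subunits of the chain were higher together while paralogues of 1 subunit differed in size (Cox8a by 2.02, Cox8b by 6.70). The NRF1 element, a palindrome of G and C bases around a free centre that the Nrf1 protein recognises, was searched on both strands and occurred in 21 of 70 windows of nuclear subunits (30.0%), for 65 of the 80 genes that had a window. It was found in 12.2% of 13751 windows of tested genes, in 12.0% of 1188 windows of genes higher in BAT by the fold-of-2 test, in 5.65% of 1963 windows of those higher in EFAT and in 6.23% of all 32851 windows. Subunit genes with the element included Atpif1 (-1.40, higher in EFAT) and Atp5g3 (-0.045, not passed). The others, from Atp5g2 (1.28) to Uqcrc1 (3.17), were higher in BAT. A part of the element in the depot difference was not tested. A match describes the letters only. The sequences below are those of Uqcrc1, with 2 Nrf1 motifs in capitals, of the ubiquitous Cox8a, with the ETS motif CCGGAAGT 2 times (on the strand shown as ACTTCCGG, in capitals), of its tissue-restricted paralogue Cox8b, with TATAAA in capitals, and of Ucp1, in which none of the 6 motifs searched was found. The ETS motif occurred in 3.89% of all windows, 7.25% of those of tested genes and 7.14% of those of nuclear subunits, and TATAAA in 13.6%, 7.5% and 10.0%.
Uqcrc1, chr9:108936398-108936697, plus strand: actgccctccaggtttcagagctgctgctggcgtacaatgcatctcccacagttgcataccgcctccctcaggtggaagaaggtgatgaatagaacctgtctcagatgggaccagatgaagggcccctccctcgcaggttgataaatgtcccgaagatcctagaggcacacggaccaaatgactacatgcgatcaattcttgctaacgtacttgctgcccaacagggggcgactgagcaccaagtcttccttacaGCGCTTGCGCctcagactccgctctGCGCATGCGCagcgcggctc
Cox8a, chr19:7217567-7217866, minus strand: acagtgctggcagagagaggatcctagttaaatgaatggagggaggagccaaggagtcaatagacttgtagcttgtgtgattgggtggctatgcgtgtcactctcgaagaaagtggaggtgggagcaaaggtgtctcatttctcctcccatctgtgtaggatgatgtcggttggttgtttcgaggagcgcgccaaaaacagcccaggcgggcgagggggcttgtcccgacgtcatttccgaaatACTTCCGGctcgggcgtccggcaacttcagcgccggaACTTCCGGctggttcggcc
Cox8b, chr7:140900397-140900696, minus strand: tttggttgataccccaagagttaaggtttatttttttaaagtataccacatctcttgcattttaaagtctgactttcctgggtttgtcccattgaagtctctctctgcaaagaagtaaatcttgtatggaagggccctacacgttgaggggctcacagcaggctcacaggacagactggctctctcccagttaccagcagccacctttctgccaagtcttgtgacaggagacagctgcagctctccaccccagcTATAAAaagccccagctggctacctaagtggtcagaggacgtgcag
Ucp1, chr8:83290098-83290397, plus strand: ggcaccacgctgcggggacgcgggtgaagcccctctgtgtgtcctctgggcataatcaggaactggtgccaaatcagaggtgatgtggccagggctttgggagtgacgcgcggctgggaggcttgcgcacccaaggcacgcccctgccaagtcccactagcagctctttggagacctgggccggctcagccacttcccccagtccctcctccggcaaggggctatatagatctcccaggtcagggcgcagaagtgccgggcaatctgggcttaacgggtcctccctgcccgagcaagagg

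Genes of fuel oxidation were also mostly higher in BAT. Of 23 genes of the tricarboxylic acid cycle, 22 were higher in BAT and 1 did not pass, with a median of 2.91. Suclg1 and Sucla2 of succinyl-CoA ligase changed by 3.83 and 3.79. Pcx, which refills the cycle from pyruvate and also serves fat synthesis, had 889 ± 108 CPM in BAT and 1170 ± 333 CPM in EFAT and did not pass (-0.40, adjusted p = 0.101), though it did without EFAT library 4 (-0.53, adjusted p = 0.0235) and with library totals (-1.39). In fatty acid beta-oxidation 23 of 26 genes were higher in BAT, 1 was higher in EFAT and 2 did not pass (median 2.53). Hadhb of the trifunctional protein measured 2757, 2519, 3255 and 3559 CPM in BAT and 124, 187, 146 and 102 CPM in EFAT (4.43, SE 0.22). Acaa2 and Acadvl changed by 4.62 and 4.25. The gene higher in EFAT was Cpt1a, the liver form of the enzyme that admits fatty acids to mitochondria, with 18.1 to 23.6 CPM in BAT and 68.4 to 91.5 CPM in EFAT (-1.95). Its partner Cpt1b stood at 607, 613, 736 and 741 CPM in BAT and 2.34, 1.62, 1.38 and 2.58 CPM in EFAT.

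Genes that make fatty acids were mostly higher in BAT after TMM scaling. In fatty acid synthesis 15 of 21 tested genes were higher in BAT, 3 in EFAT and 3 did not pass (median 1.21), in place of which library totals gave 9 and 4 (median 0.22). Fasn, fatty acid synthase, read 35160, 33620, 46220 and 38970 CPM in BAT and 11050, 15660, 11870 and 8683 CPM in EFAT (1.70, SE 0.23), and Scd1, which makes monounsaturated fatty acids, changed by 1.57. Acacb and Elovl6 were higher by 3.79 and 3.33. The desaturases Fads1 and Fads2 and the elongase Elovl1, by contrast, were higher in EFAT (-1.70, -1.38 and -2.13). Lipid droplet and lipolysis genes were divided, 10 of 20 higher in BAT, 5 in EFAT and 5 not passed, with a median of 0.55, whereas library totals gave 5 higher in BAT and 10 in EFAT (median -0.46). Plin5 and Plin2, coats of small droplets, changed by 5.05 and 2.67, whereas the droplet proteins Cidec and Plin4 changed by -2.27 and -1.31. Plin1, the coat shared by all fat cells, had 1236 ± 80.3 CPM in BAT and 1305 ± 91.3 CPM in EFAT and did not pass (-0.08, adjusted p = 0.532), whereas library totals put it at -1.10. Pnpla2 and Lipe, the lipases for the first and second steps of lipolysis, were higher in BAT by 0.99 and 0.49 with TMM but lower by -0.03 and -0.53 with library totals.

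Genes of glucose and amino acid use were mostly higher in BAT too. Of 30 genes of glucose uptake and glycolysis 22 were higher in BAT, 6 in EFAT and 2 did not pass (median 2.13). Slc2a4, the insulin-responsive glucose transporter, read 517 to 610 CPM in BAT and 93.7 to 178 CPM in EFAT (2.13), Pfkl changed by 3.15 and Ldhb by 3.45. Pdk4, the kinase that closes pyruvate dehydrogenase, measured 539, 669, 962 and 1342 CPM in BAT and 18.1 to 24.5 CPM in EFAT (5.34). Pfkfb3 and Pdk3 were higher in EFAT, by -1.46 and -2.82. In the breakdown of branched-chain amino acids 20 of 24 genes were higher in BAT and 4 in EFAT (median 1.27), and with library totals 11 and 5 (median 0.24). Bckdha of the branched-chain ketoacid dehydrogenase changed by 2.57 and the mitochondrial carrier Slc25a44 by 1.63, while the transaminases Bcat1 and Bcat2 were lower in BAT by -1.64 and -0.78. Among 25 mitochondrial carriers 18 were higher in BAT and 4 in EFAT (8 and 8 with library totals), with Ucp2 (-1.03) and the dicarboxylate carrier Slc25a10 (-2.36) among the latter.

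**Figure D2:**
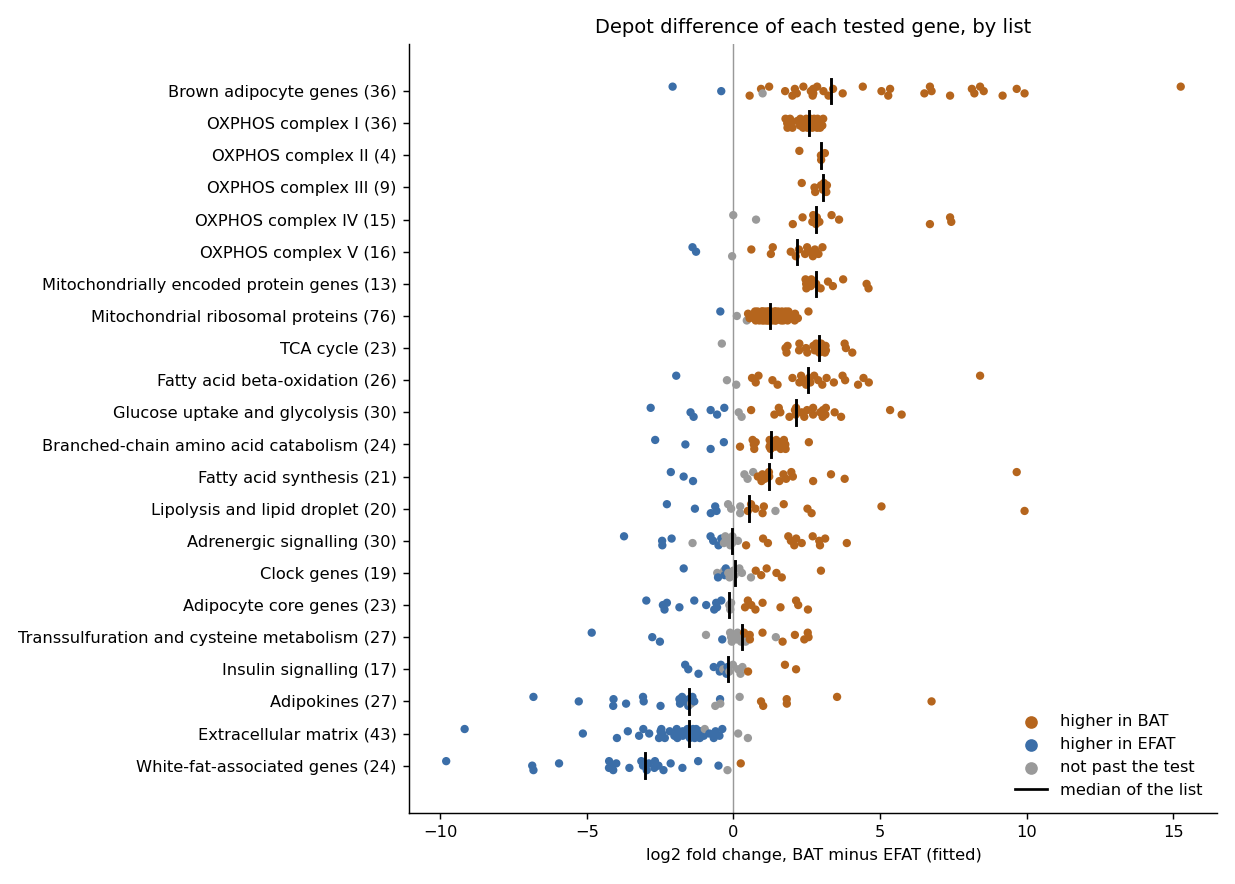
Log2 change of BAT over EFAT for the tested members of each gene list (points, coloured by the result of the test) and the median of each list (bar), with a line at 0. Lists of the respiratory chain, the tricarboxylic acid cycle and fatty acid oxidation lie at medians above 2, and the white-fat and extracellular matrix lists lie below -1.

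For 26 pairs of related genes the log2 ratio of the first to the second was compared within each library, after adding a prior count of 2, so that library scaling drops out. The counts are not per length, so only the shift of a ratio between depots is read, not its level. In 21 pairs the ratio differed between the depots (exact permutation test, two-sided p = 0.0286, adjusted over 26 pairs 0.0354), the first gene favoured in BAT in 17 and the second in 4. The muscle and brown fat subunit Cox7a1 stood at a log2 ratio of -0.41 ± 0.14 to Cox7a2 in BAT and -5.06 ± 0.19 in EFAT (SD, n = 4). Cox8b against Cox8a went from -4.86 ± 0.45 in EFAT to -0.13 ± 0.08 in BAT. The ratio of Cpt1b to Cpt1a ran from 4.68 to 5.34 in BAT and from -5.56 to -4.90 in EFAT, a difference of 10.34. Cidea against Cidec differed by 12.18, Plin5 against Plin1 by 5.13 and Acsl5 against Acsl1 by 4.36. The 4 pairs with the second gene favoured in BAT were Cox4i2 with Cox4i1, Scd2 with Scd1, Slc2a1 with Slc2a4, and Ckb with Ckm, with differences of -2.34, -0.73, -2.93 and -12.15. Ckm read 0, 0, 0.0483 and 0.16 CPM in EFAT, so the size of the last difference depends on the prior count. No difference was detected for Eno3 with Eno1, Slc25a4 with Slc25a5, Bcat2 with Bcat1, or Ppargc1a with Ppargc1b (adjusted exact p from 0.236 to 0.357). The pairs of Cox6a2 with Cox6a1 and of Pgam2 with Pgam1 no longer passed when any EFAT library or any BAT library was left out, respectively. Ratios with a gene of skeletal muscle differed within BAT too: Atp2a1 to Atp2a2 was 0.64 and 0.85 in BAT libraries 1 and 2 and -0.95 and -0.75 in libraries 3 and 4.

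**Figure D3:**
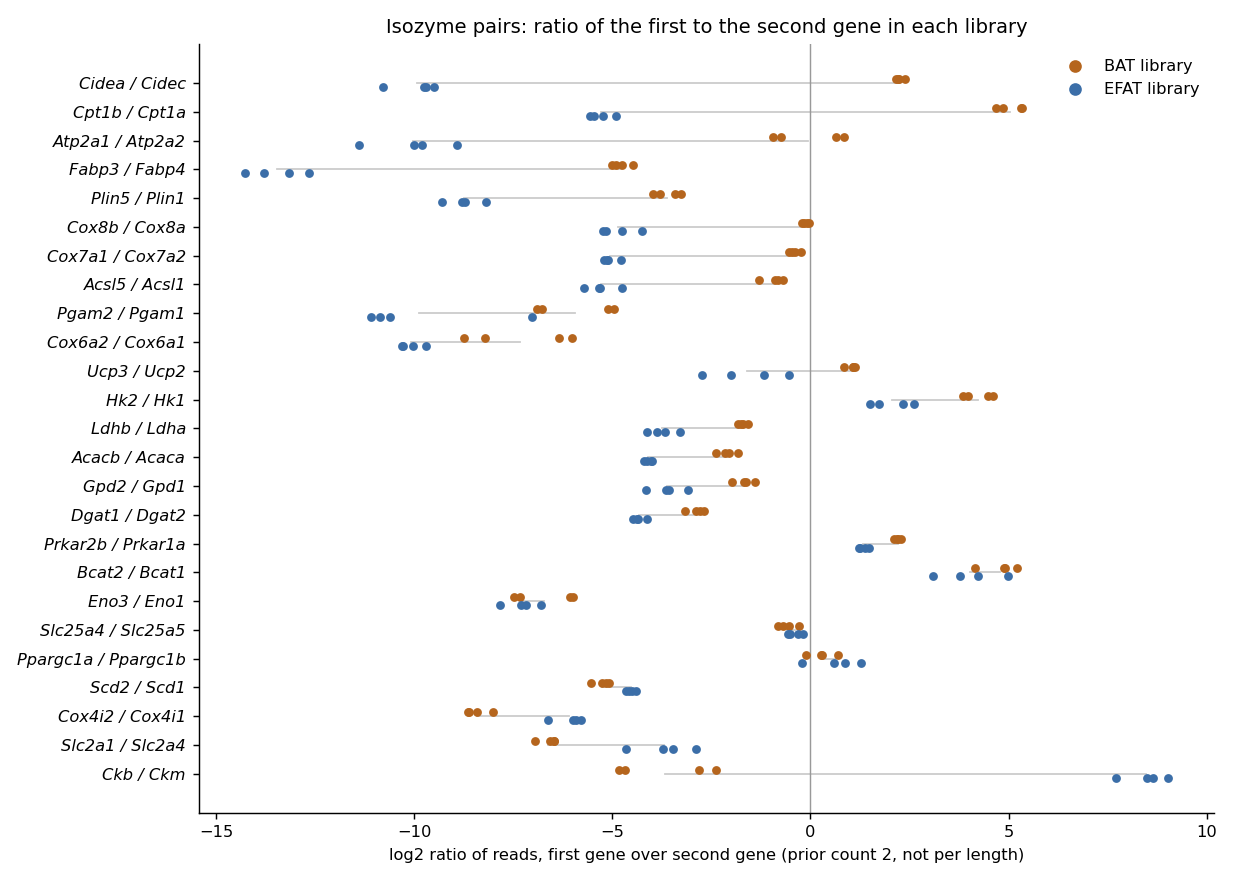
Log2 ratio of the first to the second gene of each isozyme pair in every library (points), with a grey line between the depot means, BAT and EFAT in separate colours. The 4 BAT libraries lie apart from the 4 EFAT libraries in 21 of the pairs. The differences run from 12.18 higher for Cidea with Cidec to 12.15 lower for Ckb with Ckm. With Ckm at 0.16 CPM or less in EFAT, the size of the latter depends on the prior count of 2.

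Genes of adrenergic signalling differed in both directions. Of 30 tested, 13 were higher in BAT, 8 in EFAT and 9 did not pass (median -0.04). These shares of 43.3% and 26.7% stand beside 30.4% and 33.1% over all tested genes. Library totals turned that balance, with 10 higher in BAT and 18 in EFAT (median -1.06). Adrb3, the beta-adrenergic receptor of fat cells, read 126, 134, 206 and 194 CPM in BAT and 197, 226, 244 and 214 CPM in EFAT. The depots overlapped, and its change of -0.42 (SE 0.17, adjusted p = 0.0489) was not past the threshold in 10 of 21 alternative settings, with adjusted p from 0.000155 to 0.229, among them the settings without BAT library 1 or 2 and without each EFAT library in turn (0.0517 to 0.11). Adrb1, the heart-type beta receptor, stood at 21.4, 30.8, 38.8 and 31.0 CPM in BAT and 1.97, 2.27, 2.32 and 1.79 CPM in EFAT (3.87, SE 0.19), and the alpha receptor Adra1a at 49.9 to 63.2 CPM against 5.50 to 7.55 CPM (3.13). Downstream, the adenylyl cyclase Adcy3 was higher in BAT by 2.92 and Adcy5 higher in EFAT by -3.73, with 4.73 ± 0.633 CPM in BAT and 62.8 ± 11.0 CPM in EFAT. The phosphodiesterase Pde4d and the G protein regulator Rgs7 were higher in BAT by 2.95 and 2.70.

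Secreted factors were mostly higher in EFAT: 17 of 27 tested adipokines, against 6 in BAT and 4 not passed (median -1.52; 21 and 4 with library totals). Besides Lep, Retn and Agt these included Lcn2 (-5.27) and Apln (-3.66). Bmp8b, a brown fat growth factor, read 3.40, 0.975, 1.48 and 1.91 CPM in BAT and 0, 0, 0 and 0.0533 CPM in EFAT. Fgf21 had 2.62 to 4.09 CPM in BAT and 0.172 to 0.429 CPM in EFAT (3.53), a low level in both. Nampt changed by 1.82 and Vegfa, which drives vessel growth, by 1.01 with TMM and by 0.01 with library totals.

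The gene that the series removes in its other groups, Cth, was lower in BAT than in EFAT. Cth measured 2.26, 1.10, 0.439 and 0.826 CPM in BAT and 7.20, 7.97, 9.39 and 7.09 CPM in EFAT, with no overlap (-2.77, SE 0.38, adjusted p = 0.000137). Cbs, the enzyme of the step before, had at most 0.274 CPM in BAT and 3.03 to 6.23 CPM in EFAT (-4.83). Cdo1, which oxidises cysteine, was among the abundant genes of the list, with 1035 ± 58.7 CPM in BAT and 1348 ± 212 CPM in EFAT (-0.38, adjusted p = 0.025), a call lost in 5 of 21 alternative settings, among them without EFAT library 2 (adjusted p = 0.0607). Slc7a11, the cystine importer, measured 2.16, 0.650, 0.219 and 0.565 CPM in BAT and 0.8, 0.675, 0.410 and 0.826 CPM in EFAT and did not pass (adjusted p = 0.547); without BAT library 1 its change turned from 0.42 to -0.52. Suox and Oplah, of sulfite and glutathione breakdown, were higher in BAT by 1.68 and 2.53. Over the 27 tested genes of cysteine metabolism 10 were higher in BAT, 4 in EFAT and 13 did not pass (median 0.29), and with library totals 5 were higher in BAT and 17 in EFAT (median -0.72). In coenzyme A synthesis, which uses cysteine, 7 of 13 were higher in BAT and 3 in EFAT (median 0.39), and with library totals 4 and 7 (median -0.64). Its first enzyme has several forms, of which Pank1 read 144 to 246 CPM in BAT and 4.56 to 5.84 CPM in EFAT (5.28) while Pank3 was higher in EFAT (-1.49).

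Transcription factors of development, many of which record the embryonic origin of a cell, differed in both directions. Of 42 tested, 13 were higher in BAT, 21 in EFAT and 8 did not pass (median -0.42), and with library totals 10 and 28 were (median -1.45). The TMM shares were 31% and 50%, beside 30.4% and 33.1% over all tested genes. Lhx8 had 0.978 to 1.82 CPM in BAT and no read in EFAT, at least 66.1-fold higher (against a floor of 3 counts over the group). Zic1 had 530 reads in BAT and 3 in EFAT, a ratio of 340 after scaling with a 95% counting interval of 116 to 1656. Tbx15, Tbx5 and En1 were higher in BAT by 6.43, 6.10 and 3.35. In the other direction Wt1, a factor of mesothelium and of visceral fat precursors, had 7.15, 8.46, 9.90 and 9.09 CPM in EFAT and no read in BAT, at least 221-fold lower there. Tcf21 also had no read in BAT, at least 103-fold lower. Of 24 tested Hox genes, which record position along the body axis, 17 were higher in EFAT and 2 in BAT, both of cluster A, where library totals left 1 of 8 higher in BAT and 5 in EFAT. By paralogue number, groups 1 to 5 gave 12 tested genes with 2 higher in BAT, 6 in EFAT and a median of -0.22, and groups 6 to 9 gave 12 with none higher in BAT, 11 in EFAT and a median of -2.0. The 12 genes of groups 10 to 13 did not have enough reads to be tested. Hoxa4 and Hoxa5 were the 2 higher in BAT (1.63 and 1.17, the latter 0.13 with library totals). Hoxc8 read 11.4, 9.36, 7.29 and 5.17 CPM in BAT and 108, 104, 86.3 and 94.3 CPM in EFAT (-3.57), and Hoxc9 had 2 reads in BAT against 542 in EFAT, a ratio of EFAT to BAT of 141 with a 95% counting interval of 38.8 to 1165.

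**Figure D4:**
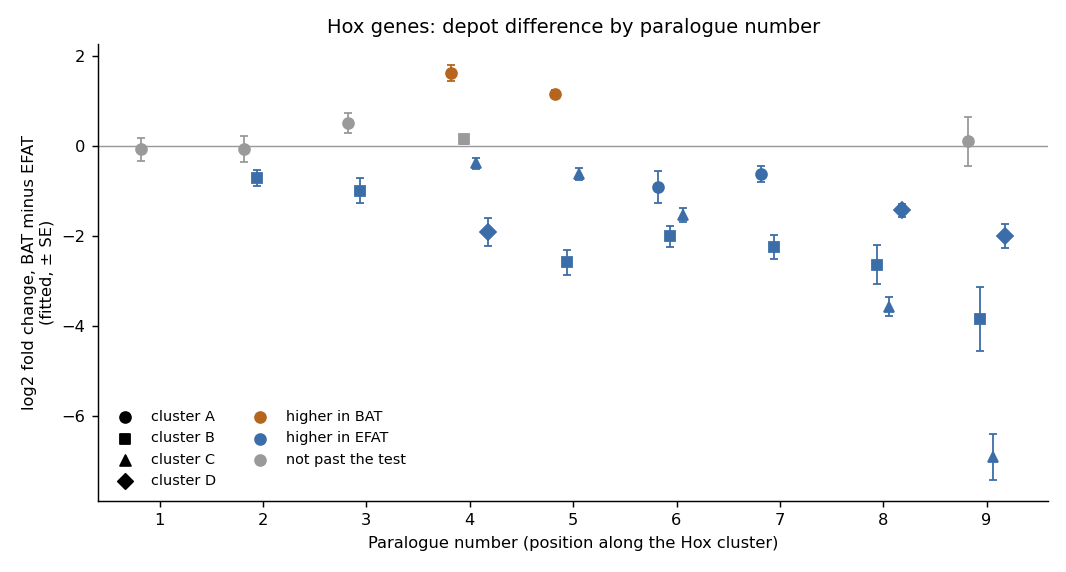
Log2 change of BAT over EFAT for the 24 tested Hox genes against paralogue number (groups 1 to 9), with the 4 clusters as separate symbols, the result of the test as colour and the SE as bars. Hoxa4 and Hoxa5 lie above 0 at 1.63 and 1.17, and the genes of groups 6 to 9 have a median of -2.0.

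Markers of other cell types differed widely between the depots. All 20 skeletal muscle markers were higher in BAT (19 with library totals). Their summed level was 3064, 3226, 964 and 1077 CPM in BAT libraries 1 to 4 and 43.9 to 65.7 CPM in EFAT, and 5 of the 12 largest changes in BAT were muscle markers, with Myh4 at 14.38. Xirp2, Lmod2 and Ampd1, also known from muscle but not on the list, had no read in EFAT. Without libraries 1 and 2 of BAT 9336 genes were called in place of 9636, and 86.8% of the 9636 were called in the same direction. By reads of 1 predicted gene, BAT libraries 1 and 2 and EFAT libraries 1, 2 and 4 form set B. The place of EFAT library 2 is uncertain, with 3 such reads beside 148 and 146 in EFAT libraries 1 and 4. BAT libraries 3 and 4 and EFAT library 3 form set A. Muscle level and library set cannot be told apart in BAT. The part of muscle in the changes of Ckm, Ckmt2, Atp2a1, Pgam2, Eno3 and Cox6a2, and of Cox7a1, Cox8b, Cpt1b and Fabp3, which muscle also expresses, was not tested. Ckmt2 read 22.0, 21.1, 6.53 and 7.47 CPM in BAT and none in EFAT.

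On the EFAT side all 13 mesothelial markers were higher, with summed levels of 159 to 321 CPM against 10.4 to 14.7 CPM in BAT. Upk3b, Upk1b, Wt1 and Muc16 had no read in any BAT library, and 7 of the 12 largest changes in EFAT were mesothelial markers. One of the 7, the keratin Krt8, read 15.2, 3.50, 32.4 and 34.8 CPM in EFAT and was lowest in library 2. Upk3b read 32.2, 68.7, 78.3 and 34.7 CPM in EFAT. Markers of male tract epithelium were not tested, because none passed the low-count filter, which asks for enough reads in at least 4 libraries. Their summed level was 30.9, 0.31, 68.7 and 83.3 CPM in EFAT libraries 1 to 4 and 0.51 to 0.91 CPM in BAT, and genes that varied in the same way among the EFAT libraries included Cftr (5.86, 0.828, 10.8 and 12.2 CPM), Dsp and Lrp2, named by the size of their change. Slc27a2, a fatty acid transporter and acyl-CoA synthetase, read 3.75, 0.0307, 9.24 and 8.82 CPM in EFAT, lowest in that same library 2, and 36.5 to 59.9 CPM in BAT (3.07); the part of epithelium in its EFAT level was not tested.

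Immune markers were higher in EFAT, with 17 of 17 for macrophages and 9 of 9 for B cells. Macrophage markers summed to 544 to 663 CPM in EFAT and 94.8 to 155 CPM in BAT, with Csf1r and Mrc1 changed by -2.41 and -2.44. Ighm, the heavy chain of immunoglobulin M, was 483 CPM in EFAT and 17.9 CPM in BAT (-4.76). Markers of fibroblasts and adipocyte progenitors were higher in EFAT in 12 of 16, with Pdgfra at -1.82 and Dcn at -2.17. The extracellular matrix list gave 40 of 43 genes higher in EFAT, none in BAT and a median of -1.51, with Fn1 (fibronectin) at 50.4 to 82.6 CPM in BAT and 575 to 738 CPM in EFAT and Col15a1 changed by -3.60. Proliferation markers were higher in EFAT in 12 of 14, Mki67 by -2.94. Of 16 endothelial markers 2 were higher in BAT, 5 in EFAT and 9 did not pass (median -0.29), whereas with library totals all 16 were higher in EFAT (median -1.30). Plvap, of fenestrated vessels, changed by -1.84. Schwann cell markers were higher in BAT in 8 of 10 (4 with library totals), with S100b at 6.51, although the summed level of that list was 255 to 318 CPM in BAT and 427 to 479 CPM in EFAT. Of its members Scn7a and Pmp22 changed by -2.11 and -1.59. None of the 6 tested erythroid markers, the globin genes among them, passed the test with TMM (median change -0.14), and with library totals all 6 were higher in EFAT (median -1.16).

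**Figure D5:**
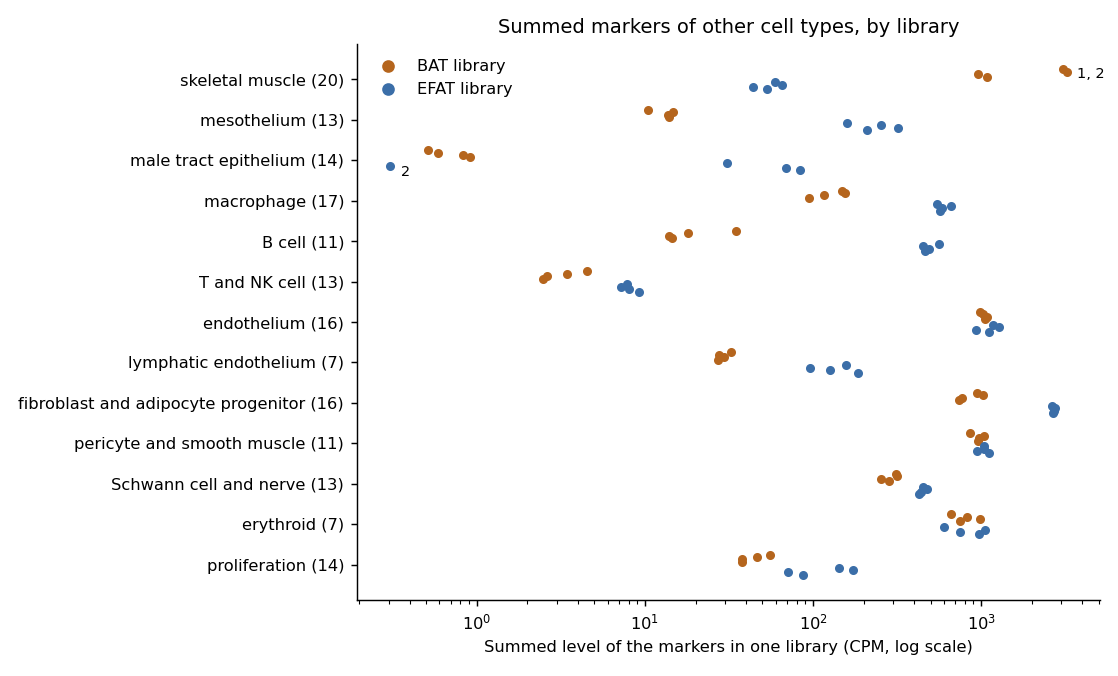
Summed CPM of marker genes of other cell types in each library, on a log axis, BAT and EFAT in separate colours. BAT libraries 1 and 2 (labelled 1, 2) hold 3064 and 3226 CPM of skeletal muscle markers, and EFAT library 2 (labelled 2) holds 0.31 CPM of male tract epithelium markers.

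The depot difference was then compared with that in the 24 BAT and EFAT libraries of the other 3 conditions, in a fit of all 32 libraries and 17714 tested genes. The levels compared in the other conditions come from none of the 8 baseline libraries. The low-count filter, the scaling and the estimate of the spread, however, were taken from all 32 libraries. Each test of a change in the difference has the baseline libraries as its control. In Cth+/+ mice on CysF, Cth-/- mice on CTRL and Cth-/- mice on CysF, 60.9%, 60.5% and 70.1% of tested genes differed between BAT and EFAT. When each condition was fitted alone, 8218, 9088 and 11536 genes were called in place of 10783, 10710 and 12417. Of the 9636 baseline calls, 84.7%, 83.6% and 79.9% were called in the same direction in the fit of 32 libraries. The opposite direction was called for 12, 9 and 256 genes. No gene's depot difference changed significantly in the first 2 conditions (0% of 17714 genes in edgeR's test, with 876 and 1332 genes at an unadjusted p under 0.05, and 16 and 51 genes called by DESeq2), whereas 3406 genes (19.2%) did in Cth-/- mice on CysF. The targeted gene Cth was at 0.0105 and 0.0531 CPM in BAT and EFAT of Cth-/- mice on CTRL.

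Ucp1 was higher in BAT in all 4 conditions. It measured 3604 ± 639 CPM in BAT on CysF and 31.3 ± 62.6 CPM in EFAT (Cth+/+, n = 4), where 1 library held most of the reads, and 7534 ± 1347 CPM in BAT of Cth-/- mice on CysF against 0.335 ± 0.432 CPM in EFAT. Among the 35 brown adipocyte genes called at baseline, 33, 33 and 35 were called in the same direction in the other 3 conditions, and the difference of 10 changed in Cth-/- mice on CysF. Among genes over 5 CPM the difference of Dio2 widened most there, by 6.93 (SE 1.29, adjusted p = 0.000485), with 550.6 ± 485 CPM in BAT and 0.432 ± 0.0706 CPM in EFAT (SD, n = 4). The differences of Apln and Mogat2, higher in EFAT at baseline, changed by 4.91 and 5.43; their mean levels in EFAT were 33.6 and 13.3 CPM at baseline and 0.869 and 0.108 CPM there. Differences of Rpl3l, Klhl31, Tcap and Mylk4, genes of muscle, changed by -7.99 to -6.42. The summed muscle markers of BAT had a median of 120 CPM in Cth-/- mice on CysF against 2140 CPM at baseline, and the part of muscle in these changes was not tested.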

How the data were processed

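Poly(A) RNA sequencing of BAT and EFAT was analysed from the table of expected counts per gene that the authors deposited, which is estimated with reads of similar genes shared between them. FastQC, STAR, Picard and RSEM and the mouse build mm10 are named in the submitters' processing notes, versions not given in the sources used here. Expected counts were rounded to whole numbers. Groups came from the sample labels. Gene coordinates came from GENCODE M21, for which 47224 of 47729 gene IDs matched without the version suffix. Promoter windows came from RefSeq.

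Genes were kept by edgeR's filterByExpr (minimum count 10, total 15), libraries were scaled by TMM, and the depots were compared with edgeR 4.0.16 quasi-likelihood tests in R 4.3.3 (limma 3.58.1), adjusted by Benjamini-Hochberg at 0.05 over all tested genes, with 4 libraries per group. A second test asked for more than a fold of 2. The mitochondrial share and the isozyme ratios were compared by exact permutation tests. Changes of the depot difference in the other conditions were interaction terms in a fit of 32 libraries. The tests were checked on simulated counts in which few genes changed, equally in both directions. That check does not cover data in which 63.6% of tested genes differed, nor the choice of scaling. A gene without a read was set against a floor of 3 counts over its group, and the floors and 95% intervals cover counting error only.

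Alternatives were RLE scaling, library totals, scaling without mitochondrial genes, no low-count filter, robust dispersion, fits of 32 or 48 libraries, a replicate block, the library set as a term, DESeq2 1.42.0 and leaving out each library. The other conditions were also fitted with only the groups compared. Added after seeing the data were BAT without libraries 1 and 2, each library set alone and the mitochondrial share with nuclear pseudogene copies. The genes, lists and comparisons were chosen with earlier results of these data known. Genes named are a set of 32 depot, lipid and cysteine genes, up to 6 passing members of each list in each direction by size (over 1 CPM) and up to 4 not passing, the 12 largest changes each way (over 5 CPM, no overlap, no predicted genes or pseudogenes), the 10 most abundant genes per depot, both genes of each isozyme pair and the 5 largest interactions each way. Some items within this rule are not reported here, 1 of the isozyme pairs among them.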

Additional observations from a re-analysis of the deposited data

Results flagged for a closer look

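In groups of 4 libraries, 1 library stood apart from the other 3 in 16 of the 296 gene and depot groups examined (by the ratio of its gap to the whole range, Dixon's 95% limit), and chance alone flags about 1 in 20 groups. In BAT these were library 1 for Nnmt (5.66 CPM), Plin1 (1360 CPM), Slc25a10 (70.5 CPM) and Lcn2 (2.88 CPM), library 2 for Lipe (1100 CPM) and Hoxa4 (17.3 CPM), and library 3 for Prdm16 (37.9 CPM) and Cox8a (610 CPM). In EFAT these were library 2 for Elovl6 (473 CPM), Fn1 (738 CPM) and Mogat2 (21.7 CPM), library 3 for Eno3 (3.43 CPM) and Pank1 (5.84 CPM), and library 4 for Bmp8b (0.0533 CPM), Myh4 (0.0533 CPM) and Pgam2 (0.853 CPM).

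The depot difference itself changed between baseline and Cth-/- mice on CysF for 10 genes named by size, tested as an interaction in edgeR. It moved towards BAT by 6.93 for Dio2, 6.60 for Cyp2b10, 5.43 for Mogat2, 4.91 for Apln and 4.78 for Hephl1, and towards EFAT by -6.42 for Mylk4, -6.43 for Tcap, -6.52 for Mup7, -6.65 for Klhl31 and -7.99 for Rpl3l. Cyp2b10 had means of 3.17 CPM in BAT at baseline and 204 CPM in BAT of Cth-/- mice on CysF. Without EFAT library 2 the interaction of Hephl1 was 3.87 (adjusted p = 0.0589), and without EFAT library 16 that of Mup7 was -2.91 (adjusted p = 0.407).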

How the results depend on the processing

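Of 150 named genes, 130 kept their direction and their side of the threshold in all 21 alternative settings. In 1 of these, library set A alone, EFAT had 1 library, assumed to vary like BAT. The count of 9636 genes ranged from 8958 to 10202 with 1 library left out, and the count of 3553 past a fold of 2 from 3312 to 4224. Library totals gave 6255 genes past a fold of 2, and the libraries of set B alone, defined by reads of 1 predicted gene known from earlier results to split the libraries, gave 2328. Library totals turned Rb1 (-0.78), Pparg (-0.42), Fabp4 (-0.63), Pnpla2 (-0.034), Lipe (-0.53), Slc7a11 (-0.62) and Hephl1 (-0.65) towards EFAT. With 1 library left out Slc7a11 ranged from -0.52 (without BAT library 1) to 0.72 (without BAT library 3); it also turned without BAT libraries 1 and 2 (-0.79), and Hephl1 did so in the latter (-0.16). The difference in mitochondrial share ranged from 16.2 to 20.4 points and the isozyme pairs past the test numbered 20 in place of 21 when any 1 library was left out. The cause of these changes was not tested.

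Equal library numbers were not taken as pairs, which the labels do not give: the correlations of deviations were 0.147, -0.06, 0.288 and -0.08, numbers 1 and 3 correlated best with their own number, and 2 and 4 with another. With the replicate number as a block 9462 genes were called, and 0 of 26 isozyme pairs passed, since 4 pairs cannot give an exact p under 0.05; the interaction of Mup7 was then -6.51 (adjusted p = 0.0531). The count of genes with a changed depot difference in Cth-/- mice on CTRL was 2 with the replicate block, 51 with DESeq2 and 0 to 10 without 1 library, with 10 reached without BAT library 14. DESeq2 gave 16 in Cth+/+ mice on CysF, where leaving out a library gave 0. In Cth-/- mice on CysF the count of 3406 ranged from 2577 to 3570 without 1 library. It was 3610 with the replicate block, 3912 with DESeq2, 2723 without the low-count filter and 4052 with only the groups compared. With 1 library left out, depot differences in the 3 conditions ranged from 9886 to 10965, 9960 to 10627 and 11929 to 12472 genes. Fits of only the groups compared gave 8218, 9088 and 11536 genes. Without the low-count filter there were 10498, 10503 and 13463, and with DESeq2 10889, 10912 and 12547.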

Other observations

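Counts for genes of the circadian clock, insulin signalling and cholesterol depended on the scaling. Of 19 tested clock genes 6 were higher in BAT, 4 in EFAT and 9 did not pass (median 0.04), and with library totals 1 and 12 (median -1.02). The TMM shares were 31.6% and 21.1%, beside 30.4% and 33.1% over all tested genes. Npas2 was higher in EFAT by -1.70. Of 17 tested genes of insulin signalling 3 were higher in BAT and 8 in EFAT, with a median of -0.20, and with library totals 2 and 14 (median -1.23). Cholesterol genes gave 11 of 22 higher in BAT, 1 in EFAT and 10 not passed (median 0.55), with Fdps at 1.73, and with library totals 1 higher in BAT and 11 in EFAT (median -0.46).

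Pericyte and smooth muscle markers gave 4 of 11 higher in BAT and 5 in EFAT (1 and 9 with library totals), lymphatic markers 7 of 7 higher in EFAT, and T and NK cell markers 7 of 8 higher in EFAT. Cpn2, a subunit of carboxypeptidase N with no place on any list, had 0 to 0.0613 CPM in EFAT and was higher in BAT by 10.54.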
